A study of Mus musculus with 209 samples.

Results

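Regulatory T cells (Treg) of the spleen, taken from C57BL/6 mice 2 h after an intravenous injection of TNFa, were set against Treg of mice that had received PBS. The comparison holds the 8 libraries titled for Treg from spleen with TNFa or PBS, out of 209 libraries in the study, and covers all genes. The study profiled 14 immune cell types by RNA sequencing after injection of IL1b, IL6 or TNFa, or of PBS. The TNFa group (3 libraries) received 5 µg of the cytokine in 120 µL of PBS, and the PBS group (5 libraries) received 120 µL of PBS. All mice were 5 to 8 weeks old, with no other allele or agent in the labels, and 1000 cells per library were sorted in 2 rounds directly into lysis buffer. Treg of mice given 5 µg of IL1b (3 libraries) and the cells labelled T.4, the other CD4 T cells of the screen (3 TNFa and 5 PBS libraries), served as comparisons. The titles place these cells in the spleen whereas their tissue label names the peritoneal cavity, and the titles were followed here. The labels do not say whether the libraries of a group came from separate mice, so p-values measure the spread between libraries, which may be technical.

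TNF acts through the receptors TNFR1 (gene Tnfrsf1a), found on most cells, and TNFR2 (Tnfrsf1b), which in mice is best known on Treg, myeloid cells and activated T cells. Both receptors recruit TRAF adaptors and the ubiquitin ligases cIAP1 and cIAP2, which activate the IkB kinases, and these release NF-kB dimers to the nucleus. NF-kB then raises transcription of its own subunits and of its inhibitors, among them IkBalpha and A20, which end the signal. Treg are CD4 T cells that depend on the transcription factor Foxp3 and restrain immune responses.

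The Treg libraries held 3301708 to 4953483 counts with TNFa and 3630860 to 5040275 counts with PBS. The 8 Treg markers had a mean of 9.07 ± 0.10 log2 CPM (CPM, the count scaled to the size of its library; SD) with TNFa and 9.07 ± 0.04 with PBS, against 4.72 ± 0.70 in T.4 cells with PBS. Foxp3 lay between 1099 and 2243 CPM in these 8 Treg libraries. The 8 general T cell markers had a mean of 9.06 ± 0.08 log2 CPM with TNFa and 9.40 ± 0.09 with PBS, without overlap between the groups. TNFa library 1 stood apart in its dendritic cell markers, whose 8 genes summed to 195, 36.9 and 34.6 CPM in TNFa libraries 1 to 3 and to 13 to 29.1 CPM with PBS. Clec9a, a defining marker of that list, was at 0 in all 3 TNFa libraries and in the 5 PBS libraries. The 2 CD8 markers summed to 25.1 to 31.9 CPM with TNFa and 15 to 22.8 CPM with PBS. Markers of neutrophils, macrophages, platelets and erythroid cells summed to at most 13.6 CPM in any of these 8 libraries. Other lists were higher. Monocyte markers summed to 141 to 185 CPM with TNFa and 112 to 182 CPM with PBS, and plasma cell markers to 183 to 228 and 135 to 224 CPM. Plasmacytoid dendritic cell markers summed to 121 to 140 CPM with TNFa and 114 to 159 CPM with PBS. The sums were 19.6 to 32.6 and 16.1 to 69.8 CPM for NK cell markers. For B cell markers they were 22.3 to 36.4 and 32.9 to 46.2 CPM. In bulk samples, fewer cells of a type and less RNA per cell cannot be told apart.

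At 2 h, genes raised with TNFa included 10 of 15 NF-kB proteins and kinases, 5 of 14 tested brakes on NF-kB and 18 of 31 JAK-STAT genes. Genes lowered included 6 of 20 of quiescence and egress, a list with 3 raised, and 5 of 23 of the cell cycle. All gene lists were chosen with earlier results of these data known, so their counts and medians are descriptions. Of 12946 genes tested, 660 passed the threshold, an adjusted p under 0.05 (5.1%). Of these, 364 were raised (2.81%) and 296 were lowered (2.29%). The raised genes had a median log2 fold change (TNFa over PBS) of 1.04, the lowered genes of -0.86, and all genes tested of -0.004. Raised genes above 1 on the log2 scale numbered 193, and 109 lowered genes lay below -1. The 3 TNFa and 5 PBS libraries did not overlap for 1417 genes, 10.9% of those tested, and for 618 of the 660 called genes (340 raised and 278 lowered). Without TNFa library 3, 424 genes passed, 258 raised and 166 lowered. Without TNFa library 1, the one with the highest sum of dendritic cell markers, 488 passed.

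**Figure D1:**
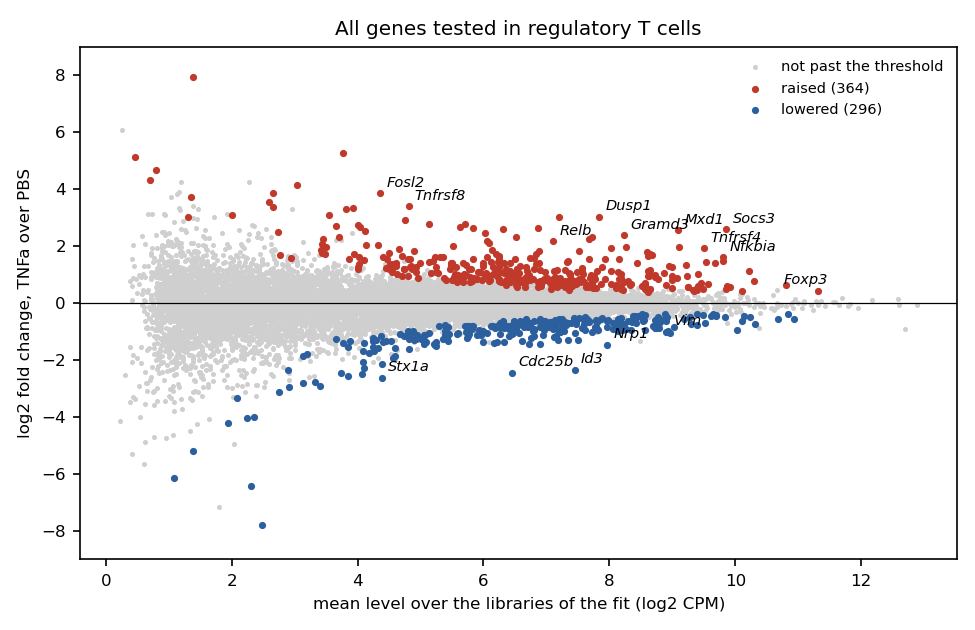
Log2 fold change of TNFa over PBS (vertical axis) against the mean level over all libraries of the fit (horizontal axis, log2 CPM) for the 12946 genes tested in Treg, 1 point per gene. The 364 raised genes are red and the 296 lowered genes blue, and Socs3, Mxd1 and Gramd3 combine a high level with a log2 fold change above 2.

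The genes with the smallest adjusted p were Gramd3, Socs3, Mxd1, Dusp1, Elovl6, Relb, Sbno2, Tnfrsf4, Ifngr1 and Stat3, all raised. Gramd3, a GRAM domain protein, had 776, 582 and 665 CPM in the TNFa libraries and 124, 128, 126, 133 and 132 CPM in the PBS libraries. All TNFa libraries lay far above the tightly grouped PBS libraries, and the log2 fold change was 2.39 ± 0.13 (SE, adjusted p = 3.35e-10). Mxd1, a partner of MAX that opposes MYC, had 1116, 1167 and 1145 CPM with TNFa and 266, 168, 233, 182 and 122 CPM with PBS. All TNFa libraries were high and close together, with a log2 fold change of 2.56 ± 0.17 (adjusted p = 8.59e-09). The fatty acid elongase Elovl6 averaged 191 ± 9.59 CPM with TNFa and 30.3 ± 7.74 CPM with PBS (SD, n = 3 and 5, log2 fold change 2.65 ± 0.19, adjusted p = 2.32e-08). Sbno2, a transcriptional coregulator, averaged 561 ± 111 CPM with TNFa and 178 ± 13.4 CPM with PBS (log2 fold change 1.65 ± 0.13, adjusted p = 8.8e-08).

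The raised genes with the greatest fold change, among called genes whose groups did not overlap and reached a mean of 20 CPM, were led by the AP-1 subunit Fosl2. It had 25.4, 35.2 and 70.2 CPM in the TNFa libraries and 3.84, 5.89, 1.16, 0.551 and 3.02 CPM in the PBS libraries (log2 fold change 3.87 ± 0.52, adjusted p = 6.78e-05). All PBS libraries were low, and TNFa library 3 was the highest. Tnfrsf8, which encodes CD30, had 32.2, 88.8 and 85.8 CPM with TNFa and 10.4, 9.14, 6.01, 3.31 and 3.02 CPM with PBS. Its log2 fold change was 3.42 ± 0.46 (adjusted p = 7.01e-05), with TNFa library 1 the lowest of the TNFa libraries. Il1r2, the decoy receptor for IL-1, had 19.8, 40.3 and 52.8 CPM with TNFa and 4.11, 8.33, 0.924, 0.827 and 4.03 CPM with PBS, again without overlap (3.33 ± 0.60, adjusted p = 0.00153). The protease inhibitor Serpinb1a followed at 3.30, although its highest PBS library (6.5 CPM) came close to its lowest TNFa library (6.60 CPM). Enzymes in this group were Dgat2 of triglyceride synthesis (2.77), Odc1 of polyamine synthesis (2.76) and the transglutaminase Tgm2 (2.73). The stress genes Gadd45g (3.02) and Gadd45b (2.67), the AP-1 subunit Jun (2.91), the phosphatase Dusp1 (3.04) and the transcription factor Bhlhe40 (2.62) were also in it. Rnf157 (2.71), a ubiquitin ligase, lost its call without TNFa library 3 (adjusted p = 0.0785), and Gm44292 (2.67) completed the 15.

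Genes of the NF-kB pathway that passed the test were all raised. Of 15 genes for NF-kB subunits, IkB proteins and IkB kinases, 10 were raised and 0 lowered, with a median log2 fold change of 0.97. Relb, the subunit of the alternative pathway, had 262, 378 and 332 CPM with TNFa and 71, 82.5, 73.5, 58.2 and 70.8 CPM with PBS. Its lowest TNFa library lay well above its highest PBS library (2.19 ± 0.16, adjusted p = 2.59e-08). Its partner Nfkb2 had 442, 624 and 697 CPM with TNFa and 148, 195, 151, 138 and 142 CPM with PBS, and PBS library 2 was the highest of its group (1.92 ± 0.19, adjusted p = 1.63e-06). Nfkbia, which encodes IkBalpha, had 1904, 1593 and 1875 CPM with TNFa and 625, 769, 544, 517 and 457 CPM with PBS, without overlap (1.62 ± 0.15, adjusted p = 2.96e-07). The atypical IkB protein Bcl3 averaged 123 ± 5.84 CPM with TNFa and 22.2 ± 6.77 CPM with PBS (2.46 ± 0.22, adjusted p = 2.78e-07). The subunit Rel averaged 418 ± 62.9 CPM with TNFa and 172 ± 32.1 CPM with PBS (1.28 ± 0.16, adjusted p = 3.04e-05), and the kinase Ikbke averaged 686 ± 8.74 CPM with TNFa and 354 ± 50.9 CPM with PBS (0.95 ± 0.13, adjusted p = 7.38e-05).

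The brakes on NF-kB held 14 tested genes of 16, of which 5 were raised and 0 lowered, with a median of 0.49. Nfkbia and Nfkbie belong to this list and to the previous one. Tnfaip3, which encodes the deubiquitinase A20, had 454, 675 and 389 CPM with TNFa and 139, 61.5, 92.6, 93.7 and 126 CPM with PBS. Its TNFa libraries all lay above its PBS libraries, and TNFa library 2 was the highest (2.31 ± 0.21, adjusted p = 2.96e-07). Nfkbie, which encodes IkBepsilon, averaged 166 ± 38.1 CPM with TNFa and 63 ± 21.9 CPM with PBS (1.40 ± 0.25, adjusted p = 0.00133). The A20-binding protein Tnip2 (1.54 ± 0.16, adjusted p = 2.55e-06) and Tnfaip8 (0.76 ± 0.15, adjusted p = 0.00243) were the other two.

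**Figure D2:**
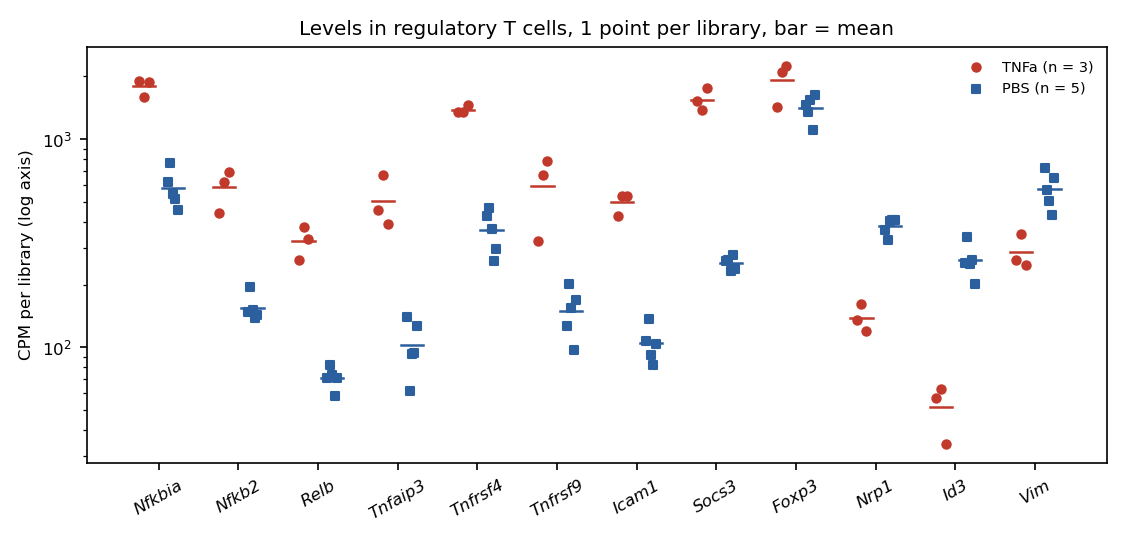
CPM per library on a log axis for 12 genes in Treg, with the 3 TNFa libraries (circles, left) and the 5 PBS libraries (squares, right) and a bar at each group's mean. TNFa libraries lie above PBS libraries for Nfkbia, Nfkb2, Relb, Tnfaip3, Tnfrsf4, Tnfrsf9, Icam1 and Socs3 and below them for Nrp1, Id3 and Vim, whereas the groups overlap for Foxp3.

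Of 13 raised genes of the NF-kB lists, 9 had a promoter in the reference table, and 5 of these carried the letters of the factor's known site and are shown for that reason. The promoters of the raised genes Bcl3, Ikbke, Nfkbib and Tnip2 held none, whereas those of Chuk, Nfkbid, Tnip1 and Traf3, which were not raised, held at least 1 match each. The genes without a match or without a call were listed after their values were seen. Each runs from 250 bases before to 50 bases after an annotated start (RefSeq, build GRCm38.p6, gene strand, the first promoter listed), with capitals on GGG, then 3 letters of any kind, then TTCC, or on the same letters of the other strand.
Nfkbia (chr12:55492598-55492897, minus strand): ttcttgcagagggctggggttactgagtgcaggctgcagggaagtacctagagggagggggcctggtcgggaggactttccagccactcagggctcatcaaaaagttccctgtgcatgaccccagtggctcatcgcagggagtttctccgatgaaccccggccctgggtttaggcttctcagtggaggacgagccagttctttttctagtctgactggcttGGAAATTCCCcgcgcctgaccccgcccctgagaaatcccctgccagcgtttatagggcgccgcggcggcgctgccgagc
Nfkb2 (chr19:46304487-46304786, plus strand): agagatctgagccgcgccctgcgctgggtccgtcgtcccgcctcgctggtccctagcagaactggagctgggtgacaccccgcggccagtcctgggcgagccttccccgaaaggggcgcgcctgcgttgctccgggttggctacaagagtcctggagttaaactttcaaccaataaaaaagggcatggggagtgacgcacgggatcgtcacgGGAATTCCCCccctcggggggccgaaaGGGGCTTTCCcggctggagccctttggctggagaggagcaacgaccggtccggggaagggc
Rel (chr11:23770920-23771219, minus strand): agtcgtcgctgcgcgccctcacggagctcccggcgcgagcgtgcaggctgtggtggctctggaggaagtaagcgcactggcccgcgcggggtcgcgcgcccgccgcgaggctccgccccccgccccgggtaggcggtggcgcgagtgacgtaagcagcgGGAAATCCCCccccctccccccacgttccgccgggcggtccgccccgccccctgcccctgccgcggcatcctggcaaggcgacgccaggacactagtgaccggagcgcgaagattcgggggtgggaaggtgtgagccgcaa
Nfkbie (chr17:45555450-45555749, plus strand): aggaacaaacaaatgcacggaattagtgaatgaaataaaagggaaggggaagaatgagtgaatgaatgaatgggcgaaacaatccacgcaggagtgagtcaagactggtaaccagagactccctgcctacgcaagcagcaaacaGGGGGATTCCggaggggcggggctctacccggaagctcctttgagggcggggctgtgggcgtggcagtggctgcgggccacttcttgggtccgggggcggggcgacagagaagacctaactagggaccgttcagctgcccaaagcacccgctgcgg
Tnfaip3 (chr10:19015361-19015660, minus strand): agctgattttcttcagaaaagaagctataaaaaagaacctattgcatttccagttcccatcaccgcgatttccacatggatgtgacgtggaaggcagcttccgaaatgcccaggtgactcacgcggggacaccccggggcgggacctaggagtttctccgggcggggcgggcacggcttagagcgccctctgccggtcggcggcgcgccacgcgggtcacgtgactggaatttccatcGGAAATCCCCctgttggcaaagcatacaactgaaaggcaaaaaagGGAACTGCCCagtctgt
The match began 29 bases before the start in Nfkbia, 91 in Rel and 106 in Nfkbie, and Nfkb2 held matches at 38 and 11 bases before it. In Tnfaip3, a match began 12 bases before the start and another 33 bases after it. The letters stood in 37 of 396 promoters of raised genes (9.34%), 21 of 315 promoters of lowered genes (6.67%), 745 of 11882 promoters of all genes tested (6.27%) and 5.56% of all 32851 promoters in the reference table. Promoters were found for 281 of the 364 raised genes and 231 of the 296 lowered genes. A match is a description of letters and not of a bound site.

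Genes of the receptor complex changed in part. Tnfrsf1b had 364, 558 and 538 CPM with TNFa and 407, 314, 350.2, 314 and 317 CPM with PBS. TNFa library 1 lay within the PBS range and the other two above it. The log2 fold change was 0.52 ± 0.15, with an adjusted p of 0.0533, which became 0.0106 without TNFa library 1, 0.0344 without PBS library 1, and 0.0275 with DESeq2. It rose to as much as 0.26 when another single library was left out. In the edgeR fit of 16 libraries with T.4 cells, described below, it was 0.167 in Treg. Tnfrsf1a had 9.91, 41.4 and 19.3 CPM with TNFa and 34, 36.4, 26.1, 21.5 and 34.3 CPM with PBS, an overlapping spread (adjusted p = 0.693). The cytokine gene Tnf had 26.2, 32.4 and 37.6 CPM with TNFa and 30.4, 39.4, 39.3, 38.3 and 44.1 CPM with PBS (adjusted p = 0.773). Of 25 genes of the receptor complex, 3 were raised and 0 lowered (2.81% and 2.29% over all genes tested), with a median of 0.03. They were Birc2, which encodes cIAP1 (1.04 ± 0.14, adjusted p = 6.92e-05), Birc3, which encodes cIAP2 (1.00 ± 0.15, adjusted p = 0.000161), and the adaptor Traf1 (0.80 ± 0.15, adjusted p = 0.00181).

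In PBS-injected mice, Tnfrsf1b averaged 282 ± 32.7 CPM in Treg (SD, n = 5), the fifth level of the 14 cell types. Levels for this comparison were scaled over the PBS libraries of the whole screen. The neighbours in the order were peritoneal macrophages (MFpc) at 331 ± 54.4 CPM and NK cells at 243 ± 25.0 CPM, and both ranges overlapped that of Treg. T.8 cells averaged 127 ± 38.1 CPM and T.4 cells 49.0 ± 17.8 CPM, and the highest library of T.8 (170.0 CPM) and of T.4 (76.0 CPM) lay below the lowest of Treg (260.0 CPM). Tnfrsf1a averaged 25.2 ± 5.27 CPM in Treg, the 11th level. Ahead of it came pDC at 36.9 ± 6.20 CPM and T.4 cells at 45.8 ± 7.13 CPM, and after it follicular B cells (B.fo) at 0.256 ± 0.468 CPM. These levels are a description without a test.

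Costimulatory receptors changed in both directions. Of 24 costimulators and checkpoints, 8 were raised and 5 lowered, with a median of -0.06. Tnfrsf4, which encodes OX40, had 1348, 1341 and 1460 CPM with TNFa and 426, 467, 370.3, 259.9 and 296 CPM with PBS. The TNFa libraries were alike and all above the PBS libraries (1.93 ± 0.16, adjusted p = 1.03e-07). Tnfrsf9, which encodes 4-1BB, had 324, 674 and 783 CPM with TNFa and 126, 201, 154, 96.8 and 168 CPM with PBS (1.99 ± 0.23, adjusted p = 1.23e-05). Tnfrsf18, which encodes GITR, averaged 1258 ± 74.6 CPM with TNFa and 461 ± 87.3 CPM with PBS (1.45 ± 0.13, adjusted p = 2.96e-07). The death receptor Fas was raised by 1.17 ± 0.17 on the log2 scale (adjusted p = 0.000174).

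The 5 lowered members of that list were Cd5, Cd6, Cd27, Cd28 and Icos, of which all but Icos are named here after their values were seen. Cd5, a negative regulator of T cell receptor signals, averaged 381 ± 63.1 CPM with TNFa and 675 ± 78.5 CPM with PBS (-0.83 ± 0.14, adjusted p = 0.0011). The TNF receptor family costimulator Cd27 (-0.58 ± 0.12, adjusted p = 0.00501), the costimulator Cd28 (-0.67 ± 0.16, adjusted p = 0.0138) and the CD5 relative Cd6 (-0.40 ± 0.10, adjusted p = 0.0272) were lower too. Icos had 158, 164 and 192 CPM with TNFa and 292, 288, 282, 197 and 257 CPM with PBS (-0.62 ± 0.16, adjusted p = 0.0244). Calls of Cd28, Cd6 and Icos did not hold without single libraries: Cd28 without TNFa library 3 (adjusted p = 0.116), Cd6 without PBS library 1 (0.0686), TNFa library 1 (0.128), TNFa library 2 (0.0589) or TNFa library 3 (0.0547) and Icos without PBS library 1 (0.0576), PBS library 3 (0.0547), TNFa library 1 (0.112) or TNFa library 2 (0.0883). Without TNFa library 1, 2 or 3 or PBS library 1, 3 of the list were lowered. Cd5, Cd28 and 6 other genes form the general T cell markers, whose mean was lower with TNFa, and the part of that shift in this result was not tested.

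Genes that mark or serve Treg changed in part. Of 28 such genes, 7 were raised and 1 lowered, with a median of 0.21. Foxp3 had 1428, 2094 and 2243 CPM with TNFa and 1451, 1344, 1544, 1099 and 1622 CPM with PBS. TNFa library 1 lay within the PBS range and the others above it, with a log2 fold change of 0.44 ± 0.14 and an adjusted p of 0.0708. The adjusted p of Foxp3 was 0.00794 without TNFa library 1 and 0.0166 without the filter on low counts. It rose to as much as 0.39 when another single library was left out. In the edgeR fit of 16 libraries described below it was 0.648. Il2ra, the high-affinity chain of the IL-2 receptor, had 1085, 955 and 967 CPM with TNFa and 734, 806, 791, 883 and 870.0 CPM with PBS and did not pass (adjusted p = 0.104). Ikzf2, which encodes Helios, had 401, 554 and 498 CPM with TNFa and 543, 592, 609, 428 and 599.8 CPM with PBS, with overlap (adjusted p = 0.614). Ctla4, the inhibitory receptor, averaged 427 ± 4.79 CPM with TNFa and 299.8 ± 26.6 CPM with PBS (0.51 ± 0.13, adjusted p = 0.0221), a call lost without PBS library 3 (0.0569), PBS library 5 (0.0585), TNFa library 1 (0.0727), TNFa library 2 (0.0704) or TNFa library 3 (0.075).

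Nrp1, a surface marker of thymic Treg, was the lowered gene of that list. It had 135, 162 and 119 CPM with TNFa and 367, 326, 405, 407 and 408 CPM with PBS. Every TNFa library lay below every PBS library (-1.47 ± 0.17, adjusted p = 8.89e-06). The AP-1 factor Batf averaged 346 ± 51.2 CPM with TNFa and 97.7 ± 31.8 CPM with PBS (1.82 ± 0.24, adjusted p = 5.34e-05), the chemokine receptor Ccr8 175 ± 60.8 CPM with TNFa and 34.8 ± 20.9 CPM with PBS (2.32 ± 0.40, adjusted p = 0.000994) and Il2rb, the shared chain of the IL-2 and IL-15 receptors, 2160 ± 351 CPM with TNFa and 1381 ± 83.3 CPM with PBS (0.65 ± 0.12, adjusted p = 0.00199). Il2rb did not pass in Treg in the edgeR fit of 16 libraries described below (adjusted p = 0.164). Swap70, a guanine nucleotide exchange factor, was raised by 0.99 ± 0.21 (adjusted p = 0.00507). The growth factor gene Areg had 3.92, 11.5 and 21.4 CPM with TNFa and 3.02, 0.609, 0, 0.551 and 0 CPM with PBS (3.87 ± 0.82, adjusted p = 0.00611), a call lost without TNFa library 3 (adjusted p = 0.0578). The suppressive cytokine Il10 had 11.3, 11.5 and 8.39 CPM with TNFa and 2.74, 3.25, 3.46, 2.76 and 0 CPM with PBS (2.07 ± 0.58, adjusted p = 0.0414). Its call was lost without PBS library 1 (0.0686), PBS library 3 (0.0522), PBS library 4 (0.066), TNFa library 1 (0.116), TNFa library 2 (0.108) or TNFa library 3 (0.0684). Without TNFa library 3, 4 genes of the list were raised.

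Early activation genes rose in part. Of 16 such genes, 3 were raised and 1 lowered, with a median of 0.29. Icam1, the ligand of LFA-1, had 429, 532 and 535 CPM with TNFa and 108, 137, 91.9, 82.1 and 103 CPM with PBS, without overlap (2.25 ± 0.20, adjusted p = 3.59e-07). Cd83, a surface marker of activated cells, averaged 881 ± 142 CPM with TNFa and 266 ± 124 CPM with PBS (1.73 ± 0.27, adjusted p = 0.000441), and Cd69, which holds lymphocytes in tissue, averaged 498 ± 169 CPM with TNFa and 171 ± 54.7 CPM with PBS (1.54 ± 0.23, adjusted p = 0.000262). The intermediate filament Vim had 263, 352 and 248 CPM with TNFa and 724, 567, 503, 430.3 and 652 CPM with PBS and fell in every TNFa library (-1.0 ± 0.16, adjusted p = 0.00046).

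Genes of quiescence and egress moved in both directions, with 6 of 20 lowered, 3 raised and a median of -0.33. Id3, an inhibitor of E proteins, had 56.8, 63.3 and 34.2 CPM with TNFa and 254, 339, 251, 261 and 202 CPM with PBS. All TNFa libraries were low (-2.34 ± 0.20, adjusted p = 2.54e-07). Klf3 averaged 82.6 ± 4.98 CPM with TNFa and 202 ± 40.6 CPM with PBS (-1.29 ± 0.17, adjusted p = 6.46e-05), and S1pr1, the receptor that guides egress from lymphoid tissue, averaged 445 ± 48.4 CPM with TNFa and 742 ± 104 CPM with PBS (-0.74 ± 0.13, adjusted p = 0.00152). In the opposite direction went Id2 (1.66 ± 0.31, adjusted p = 0.0019), the IL-7 receptor chain Il7r (1.05 ± 0.20, adjusted p = 0.00276) and the chromatin organiser Satb1 (0.69 ± 0.16, adjusted p = 0.0134), the last named after its values were seen. Satb1 lost its call without TNFa library 1 (adjusted p = 0.115). Without TNFa library 1, 2 of the list were raised, and without TNFa library 3, PBS library 2 or PBS library 3, 4 were lowered.

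Of 31 JAK-STAT receptors, kinases, STATs and feedback genes, 18 were raised and 1 lowered, with a median of 0.56. Socs3, the feedback inhibitor of gp130 cytokine signals, had 1516, 1371 and 1752 CPM with TNFa and 258, 261, 233, 279 and 237 CPM with PBS. The groups were far apart, with a log2 fold change of 2.61 ± 0.15 (adjusted p = 5.63e-10). Stat3, the transcription factor of those signals, had 1075, 1153 and 1334 CPM with TNFa and 442, 376, 521, 423 and 481 CPM with PBS (1.40 ± 0.12, adjusted p = 1.22e-07). The interferon-gamma receptor chain Ifngr1 averaged 1312 ± 129 CPM with TNFa and 476 ± 67.1 CPM with PBS (1.46 ± 0.12, adjusted p = 1.14e-07). Il21r (1.02 ± 0.13, adjusted p = 5.21e-05) and the feedback inhibitor Socs1 (1.48 ± 0.20, adjusted p = 6.29e-05) were raised as well. The lowered gene was the phosphatase Ptpn6 (-0.72 ± 0.18, adjusted p = 0.02), named after its values were seen, and it lost its call without TNFa library 1 (0.052), TNFa library 2 (0.0817) or TNFa library 3 (0.0794).

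Known STAT3 and STAT5 targets gave 12 raised genes of 19 tested, 0 lowered, and a median of 0.89. Bcl3, Socs3, Stat3, Batf and Gadd45g, described above, are also on this list. The RNA-binding protein Arid5a averaged 616 ± 50.5 CPM with TNFa and 191 ± 31.3 CPM with PBS (1.69 ± 0.14, adjusted p = 1.59e-07), and the AP-1 subunit Junb averaged 1071 ± 265 CPM with TNFa and 273 ± 56.1 CPM with PBS (1.97 ± 0.17, adjusted p = 2.78e-07). The promoter of Socs3 is shown as an example with the letters of the STAT site, TTC, then 3 letters of any kind, then GAA, in capitals, beginning 154 bases before the start.
Socs3 (chr11:117969317-117969616, minus strand): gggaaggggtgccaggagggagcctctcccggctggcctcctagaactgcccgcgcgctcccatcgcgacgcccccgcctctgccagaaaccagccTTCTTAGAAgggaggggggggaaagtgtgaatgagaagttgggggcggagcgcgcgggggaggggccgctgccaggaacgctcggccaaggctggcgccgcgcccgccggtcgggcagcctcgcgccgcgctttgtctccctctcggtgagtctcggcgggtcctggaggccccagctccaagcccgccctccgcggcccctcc
These letters stood in 52 of 396 promoters of raised genes (13.1%), 12 of 315 promoters of lowered genes (3.81%), 825 of 11882 promoters of genes tested (6.94%) and 8.3% of all promoters in the reference table. The promoters of the raised genes Stat3 and Bcl3 held none. Those of Chuk, Nfkbid, Tnip1 and Sod2, which were not raised, held at least 1 match each. These genes were picked after their values were seen, and here too a match is not a bound site.

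Part of the interferon-responsive genes were raised. Of 29 tested genes known to respond to interferon-gamma, 15 were raised and 0 lowered, with a median of 0.62. The GTPase gene Gbp2 had 753, 554 and 478 CPM with TNFa and 234, 265, 249.9, 217 and 282 CPM with PBS (1.25 ± 0.17, adjusted p = 9.69e-05). TNFa library 1 was the highest, and the groups did not overlap. The transcription factor Irf1 averaged 452 ± 43 CPM with TNFa and 283 ± 16.3 CPM with PBS (0.67 ± 0.12, adjusted p = 0.00197), the GTPase Ifi47 1157 ± 203 CPM with TNFa and 755 ± 56.2 CPM with PBS (0.61 ± 0.11, adjusted p = 0.0015) and the serpin Serpina3g, whose counts may be shared with near-identical copies, 123 ± 46.9 CPM with TNFa and 40.2 ± 10.9 CPM with PBS (1.61 ± 0.26, adjusted p = 0.000464). Without TNFa library 1, 13 of the 29 were raised (median 0.46), and without TNFa library 3, 13 as well (median 0.7).

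Of 32 type I interferon-stimulated genes, 10 were raised and 0 lowered, with a median of 0.55. Ifit1, a sensor of viral RNA, had 343, 214 and 135 CPM with TNFa and 128, 136, 94.2, 101 and 99.5 CPM with PBS (1.05 ± 0.23, adjusted p = 0.00784). Library 1 was the highest of the TNFa group and library 3 lay inside the PBS range. Parp14 (0.83 ± 0.16, adjusted p = 0.00278), the nuclease Isg20 (0.96 ± 0.19, adjusted p = 0.00422) and Rtp4 (0.84 ± 0.17, adjusted p = 0.00442) were raised too. Without TNFa library 1, the one with the highest sum of dendritic cell markers, 3 of the 32 were raised, and the list median was 0.53. Ifit1 (adjusted p = 0.138) and Rtp4 (0.0601) then lost their calls. Without TNFa library 2, 6 were raised (median 0.45), and without TNFa library 3, 11 were raised (median 0.63). The part of the dendritic cell markers in this result was not tested.

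Immediate-early genes and genes known to answer glucocorticoids overlapped in Dusp1. Of 27 tested immediate-early genes, 10 were raised and 1 lowered, with a median of 0.82. Dusp1, a phosphatase that switches off MAP kinases, had 514, 467 and 544 CPM with TNFa and 69.9, 94.2, 39.5, 56.2 and 49.1 CPM with PBS. All 3 TNFa libraries stood far above the PBS libraries (3.04 ± 0.20, adjusted p = 8.31e-09). The mRNA decay factor Zfp36l2 averaged 66.2 ± 5.41 CPM with TNFa and 21.4 ± 4.33 CPM with PBS (1.63 ± 0.21, adjusted p = 4.63e-05). Klf6 was the lowered member (-0.55 ± 0.15, adjusted p = 0.0364), named after its values were seen, and lost its call without PBS library 1 (0.0578), PBS library 2 (0.0704), PBS library 4 (0.0581), PBS library 5 (0.0524), TNFa library 2 (0.164) or TNFa library 3 (0.187).

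Of 17 tested glucocorticoid-responsive genes, 7 were raised and 0 lowered, with a median of 0.67. Dusp1, Nfkbia and Il1r2 are among them and stand on other lists or in other groups above. Tsc22d3, which encodes GILZ, averaged 798 ± 138 CPM with TNFa and 413 ± 26.5 CPM with PBS (0.95 ± 0.13, adjusted p = 6.46e-05). The clock gene Per1 averaged 146 ± 55.8 CPM with TNFa and 64.2 ± 12.5 CPM with PBS (1.18 ± 0.24, adjusted p = 0.00373), a call lost without TNFa library 3 (adjusted p = 0.0561).

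Factors of mRNA decay gave 4 raised genes of 19 and 0 lowered, with a median of 0.09. They were Arid5a, Zfp36l2, the endonuclease Zc3h12d (0.85 ± 0.15, adjusted p = 0.00115) and Zfp36l1 (0.56 ± 0.14, adjusted p = 0.0183). Zfp36l1 lost its call without PBS library 4 (0.0512) or TNFa library 3 (0.163). Without PBS library 2, 6 were raised, and without PBS library 4 or TNFa library 3, 3 were.

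MYC and ribosome biogenesis genes gave 12 raised of 32 tested and 1 lowered, with a median of 0.45. The raised genes included Mxd1, described above as opposing MYC, so the count mixes genes of opposite action. Myc, the growth-promoting transcription factor, had 884, 738 and 930.3 CPM with TNFa and 238, 462, 247, 409 and 384 CPM with PBS, without overlap (1.29 ± 0.18, adjusted p = 9.87e-05). The nucleolar GTPase Gnl3 averaged 113 ± 15.9 CPM with TNFa and 64 ± 11.7 CPM with PBS (0.82 ± 0.17, adjusted p = 0.00405), and Polr1b, a subunit of RNA polymerase I, averaged 120.0 ± 34.5 CPM with TNFa and 57.7 ± 20.2 CPM with PBS (1.06 ± 0.23, adjusted p = 0.00754). Polr1b lost its call without TNFa library 2 (adjusted p = 0.0847). Mxd4, another partner of MAX, was the lowered member (-1.22 ± 0.19, adjusted p = 0.000374). Without TNFa library 3, 4 were raised and 2 lowered, and without TNFa library 1 or PBS library 5, 7 were raised.

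Of 23 cell-cycle genes, 5 were lowered and 0 raised, with a median of -0.61. Cyclin B2 (Ccnb2) had 3.1, 9.96 and 2.49 CPM with TNFa and 33.7, 23.6, 19.2, 22.9 and 28.5 CPM with PBS (-2.29 ± 0.43, adjusted p = 0.00226). The mitotic kinase Cdk1 had 2.68, 7.91 and 4.04 CPM with TNFa and 34.8, 14, 14.3, 22.9 and 16.6 CPM with PBS (-2.07 ± 0.50, adjusted p = 0.016), and TNFa was low in each library. Cyclin E1 (Ccne1, -1.75 ± 0.34, adjusted p = 0.00254) and the inhibitor Cdkn1b (-0.70 ± 0.15, adjusted p = 0.0054) were lower too. The proliferation marker Mki67 had 12.2, 36 and 4.66 CPM with TNFa and 55.7, 30.7, 59.4, 52.6 and 49.1 CPM with PBS, with overlap (-1.48 ± 0.42, adjusted p = 0.0421). Calls were lost for Cdk1 without TNFa library 1 (0.101) or TNFa library 3 (0.0806) and for Mki67 without PBS library 1 (0.0782), PBS library 3 (0.0849), PBS library 4 (0.0705), PBS library 5 (0.0656), TNFa library 1 (0.187) or TNFa library 3 (0.179). The lowered count was 10 without TNFa library 2 and 3 without TNFa library 1 or TNFa library 3.

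Beyond that list, the phosphatase Cdc25b, which starts mitosis, had 13, 49.8 and 28.3 CPM with TNFa and 204, 150.1, 159, 165 and 146 CPM with PBS. The spread among the TNFa libraries was wide, yet all lay below the PBS libraries (-2.45 ± 0.34, adjusted p = 9.87e-05). Cdc14b, another phosphatase of the cell cycle, averaged 7.5 ± 9.53 CPM with TNFa and 33.3 ± 5.79 CPM with PBS (-2.14 ± 0.55, adjusted p = 0.0251), a call lost without TNFa library 1 (0.132) or TNFa library 3 (0.0711). The other genes lowered most were Stx1a, a syntaxin of vesicle fusion, with 5.57, 6.38 and 5.28 CPM with TNFa and 33.7, 45.3, 26.3, 22.3 and 50.1 CPM with PBS (-2.62 ± 0.35, adjusted p = 6.46e-05), the filamin partner Rflnb (-2.57 ± 0.56, adjusted p = 0.00721) and Myadm (-2.49 ± 0.49, adjusted p = 0.00295).

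The remaining lists stand beside shares of 2.81% raised and 2.29% lowered over all genes tested. Of 19 tested BCL2 family members and caspases, 1 was raised and 0 lowered. This was the survival gene Bcl2l1 (0.83 ± 0.18, adjusted p = 0.00657), whose call was lost without TNFa library 2 (adjusted p = 0.0575). Of 19 glycolysis genes, Hif1a was raised (1.42 ± 0.20, adjusted p = 8.21e-05) and the glucose transporter Slc2a3 lowered (-0.96 ± 0.17, adjusted p = 0.00121), with a list median of 0.02. Of 23 tested chemokine and adhesion genes, 4 were raised, namely Icam1, Ccr8, the chemokine receptor Ccr6 (2.01 ± 0.34, adjusted p = 0.000771) and the follicle-homing receptor Cxcr5 (1.27 ± 0.25, adjusted p = 0.0036), and the integrin chain Itga4 was lowered (-1.01 ± 0.20, adjusted p = 0.00361). Of 12 tested cytokine genes, Areg and Il10 were raised and Il16 was lowered (-0.59 ± 0.12, adjusted p = 0.00427). Without TNFa library 3, 0 cytokine genes were raised by edgeR.

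**Figure D3:**
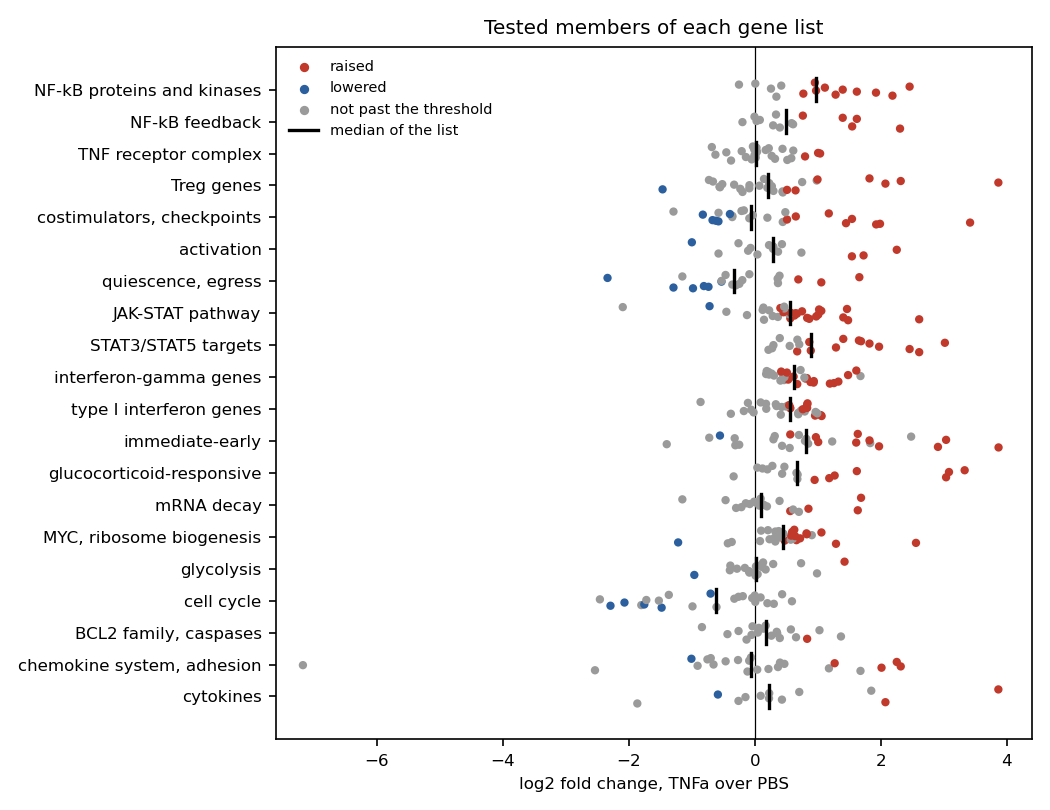
Log2 fold change of TNFa over PBS (horizontal axis) for the tested members of 20 gene lists in Treg, 1 point per gene, with a black bar at each list's median. Red points were raised and blue points lowered at an adjusted p under 0.05, and the NF-kB proteins and the STAT3 and STAT5 targets have the medians farthest to the right (0.97 and 0.89), the cell-cycle genes the one farthest to the left (-0.61).

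The response to TNFa was next set against that to IL1b, a cytokine that also activates NF-kB, in Treg. The direct contrast used the 3 TNFa and 3 IL1b libraries and no PBS library. The Treg markers had means of 8.97 to 9.16 log2 CPM with TNFa and 9.28 to 9.35 with IL1b, without overlap. Monocyte markers summed to 141 to 185 CPM with TNFa and to 354, 182 and 203 CPM in IL1b libraries 1 to 3. The part of these markers in the results was not tested. The direct contrast called 13 of 12946 genes (0.1%), of which 10 were higher with TNFa (0.0772%) and 3 lower (0.0232%), while 1034 had an unadjusted p under 0.05. RLE scaling gave 12 higher and 6 lower. A fit of only the TNFa and IL1b libraries called 13 genes as well, 12 higher and 1 lower, but kept only 7 of the 13 calls of the main fit. Among the calls lost in it were Icam1 (adjusted p = 0.0548), Vim (0.0548) and Icos (0.0584). DESeq2 called 100 genes (53 higher and 47 lower), and the fit without the filter on low counts called 104 (46 higher and 58 lower). The count depended on single libraries: by edgeR it was 0 without TNFa library 3 (838 at an unadjusted p under 0.05) and 0 without IL1b library 3 (926). It was 3 without IL1b library 1, 5 without IL1b library 2, 8 without TNFa library 1 and 23 without TNFa library 2.

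The NF-kB subunit Relb was among the genes higher with TNFa. It had 262, 378 and 332 CPM with TNFa and 114, 164 and 138 CPM with IL1b. Every TNFa library lay above every IL1b library, with a log2 difference of 1.23 ± 0.18 (adjusted p = 0.0108). Against the shared PBS libraries, Relb had log2 fold changes of 2.19 with TNFa and 0.96 with IL1b. The kinase Ikbke had 683, 680.1 and 696 CPM with TNFa and 389, 330.5 and 279 CPM with IL1b, a difference of 1.04 ± 0.15 (adjusted p = 0.0102), and its IL1b libraries lay among or below the PBS libraries. Nfkbia had 1904, 1593 and 1875 CPM with TNFa and 1202, 872 and 841 CPM with IL1b (0.88 ± 0.17, adjusted p = 0.0445), Nfkb2 442, 624 and 697 CPM and 294, 235 and 259 CPM (1.16 ± 0.22, adjusted p = 0.0445). Icam1 had 429, 532 and 535 CPM with TNFa and 290.1, 142 and 194 CPM with IL1b (1.25 ± 0.24, adjusted p = 0.0445).

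Other genes higher with TNFa were Gramd3, with 776, 582 and 665 CPM with TNFa and 447, 420.3 and 331 CPM with IL1b (0.76 ± 0.14, adjusted p = 0.0445), and the tetraspanin Cd82, with 983, 1131 and 1241 CPM and 596, 551 and 542 CPM (0.99 ± 0.18, adjusted p = 0.0445). Lpcat1, an enzyme of phospholipid remodelling, had 156, 149 and 171 CPM with TNFa and 76.1, 86.6 and 63.1 CPM with IL1b (1.07 ± 0.17, adjusted p = 0.012). All its IL1b libraries lay below its lowest PBS library, at 86.9 CPM. Lower with TNFa were Icos, with 158, 164 and 192 CPM with TNFa and 401, 280.3 and 311 CPM with IL1b (-0.95 ± 0.18, adjusted p = 0.0445), and Vim, with 263, 352 and 248 CPM and 496, 572 and 562 CPM (-0.92 ± 0.17, adjusted p = 0.0445). The third gene lower with TNFa, Stom, which encodes the membrane protein stomatin, was at 0 CPM in all 3 TNFa libraries and had 9.05, 7.07 and 3.77 CPM with IL1b (adjusted p = 0.0222). Its fitted fold change depends on the prior count and is not given. Ncoa7 (1.09 ± 0.21, adjusted p = 0.0445) and the transcriptional repressor Tgif1 (0.99 ± 0.19, adjusted p = 0.0489) were the remaining genes higher with TNFa. Stom, Ncoa7 and Tgif1 are named after their values were seen. Each of these calls was lost without TNFa library 3 and without IL1b library 3. Socs3 had 1516, 1371 and 1752 CPM with TNFa and 1763, 1857 and 2005 CPM with IL1b, a difference of -0.28 ± 0.17 that did not pass (adjusted p = 0.733).

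**Figure D4:**
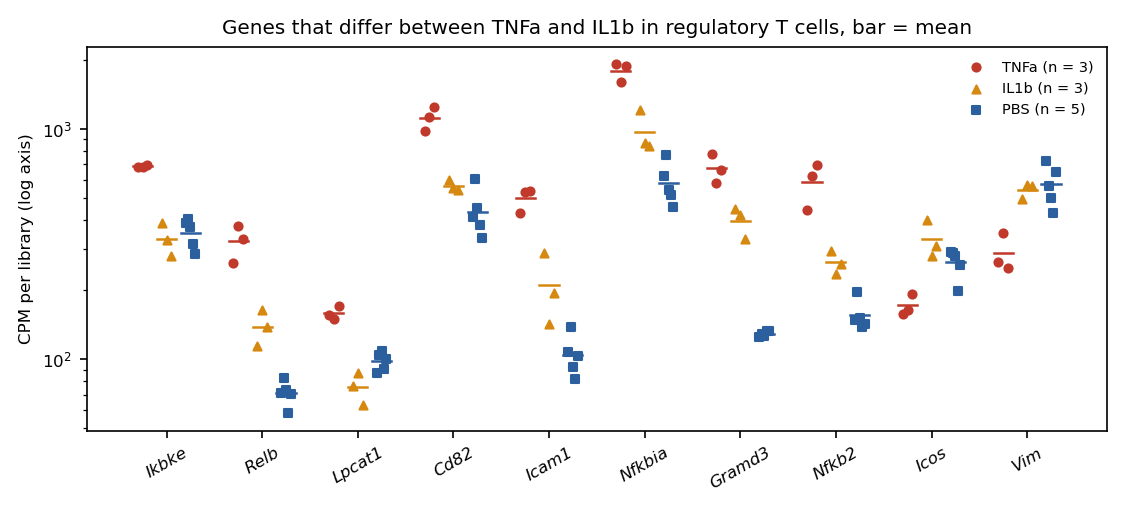
CPM per library on a log axis in Treg for 10 genes called between TNFa and IL1b, with 3 TNFa libraries (circles), 3 IL1b libraries (triangles) and 5 PBS libraries (squares) per gene and a bar at each mean. For Relb, Nfkb2, Icam1 and Gramd3 the IL1b libraries lie between the other two groups, whereas for Ikbke and Cd82 they lie among or close to the PBS libraries.

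The TNFa response of Treg was then compared with that of T.4 cells. A fit of the 16 libraries, which gave its own scaling and CPM, called 716 genes with TNFa in Treg (5.48% of 13077) and 652 in T.4 cells (4.99%). Of these, 345 were called in both, 48.2% of the Treg list and 52.9% of the T.4 list. Among them 343 moved the same way, 187 raised and 156 lowered. The 2 responses share no library. Some calls given above did not pass in Treg in this fit. They included Il2rb (adjusted p = 0.164), Ctla4 (0.418), Il10 (0.212), Mki67 (0.217), Cdk1 (0.0654), Ifit1 (0.0559) and Icos (0.0509). T.4 libraries with PBS held 21.2, 76.6, 116, 32.7 and 12.9 CPM of Foxp3. The test of the difference in response called 21 genes (0.161%), 5 with a higher log2 fold change in Treg (0.0382%) and 16 with a lower one (0.122%), and 949 had an unadjusted p under 0.05. DESeq2 called 70 (27 higher and 43 lower) and the fit without a filter 76 (25 and 51). The count was 34 without Treg PBS library 2, 11 without Treg TNFa library 3, and 10 without T.4 TNFa library 1 or T.4 TNFa library 3.

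Dusp1 answered more in Treg. It had 506, 464 and 537 CPM with TNFa and 69.7, 93.4, 39, 55.6 and 48.4 CPM with PBS in Treg, and 36.4, 61.7 and 48.1 CPM with TNFa and 28.9, 20.9, 21.6, 22.5 and 21.8 CPM with PBS in T.4 cells. The log2 fold change was 3.03 ± 0.21 in Treg and 1.06 ± 0.23 in T.4 cells, a difference of 1.97 ± 0.31 (adjusted p = 0.00616). Mif4gd, a translation factor relative, had 276, 249 and 294 CPM with TNFa and 114, 159, 135, 109 and 118 CPM with PBS in Treg, and 79.2, 65.5 and 80.1 CPM with TNFa and 90.4, 74.6, 85.7, 95.7 and 89.3 CPM with PBS in T.4 cells. It was higher in all 3 TNFa libraries of Treg, and within T.4 cells the groups overlapped (difference 1.32 ± 0.20, adjusted p = 0.00542). Gramd3 rose in both cell types, by 2.39 ± 0.10 in Treg and 1.52 ± 0.10 in T.4 cells (difference 0.87 ± 0.14, adjusted p = 0.00673). Gpr183, the oxysterol receptor EBI2, changed by 0.87 ± 0.11 in Treg and -0.02 ± 0.12 in T.4 cells (difference 0.89 ± 0.16, adjusted p = 0.0194). This call was lost without T.4.TNFa library 1 (0.108), T.4.TNFa library 3 (0.0835) or Treg.TNFa library 3 (0.0877). The chemokine receptor Ccr7 changed by 0.36 ± 0.10 in Treg and -0.34 ± 0.10 in T.4 cells (difference 0.70 ± 0.14, adjusted p = 0.0367), a call lost in 12 of 16 fits that each left out 1 library.

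Other genes answered less in Treg. Apobec3, a cytidine deaminase active against retroviruses, had 1610, 1850 and 1610 CPM with TNFa and 751, 822, 812, 781 and 699 CPM with PBS in Treg, and 1660, 1550 and 1610 CPM with TNFa and 302, 320.0, 386, 388 and 356 CPM with PBS in T.4 cells. The cell types overlapped with TNFa, whereas with PBS every Treg library lay above every T.4 library (difference -1.07 ± 0.14, adjusted p = 0.00179). Ly6a, which encodes Sca-1, changed by 1.16 ± 0.10 in Treg and 2.15 ± 0.10 in T.4 cells (difference -0.99 ± 0.15, adjusted p = 0.00542). AU020206 had 190.0, 184 and 186 CPM with TNFa and 171, 191, 227, 200 and 229 CPM with PBS in Treg, and 181, 200 and 194 CPM with TNFa and 61.7, 79.9, 92.7, 59.9 and 86.3 CPM with PBS in T.4 cells. The Treg groups overlapped and the T.4 groups were apart (difference -1.46 ± 0.21, adjusted p = 0.0032). Neb, the gene of nebulin, also overlapped in Treg, and changed by 0.33 ± 0.20 in Treg and 2.13 ± 0.21 in T.4 cells (difference -1.80 ± 0.30, adjusted p = 0.00915). AC113595.1 changed by 1.40 ± 0.16 in Treg and 2.83 ± 0.16 in T.4 cells (difference -1.43 ± 0.23, adjusted p = 0.00673).

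Myadm had 8.53, 3.05 and 1.84 CPM with TNFa and 38.3, 35.4, 25.1, 23.2 and 8.94 CPM with PBS in Treg, and 2.17, 1.72 and 1.09 CPM with TNFa and 0, 0, 0.269, 0.25 and 0.331 CPM with PBS in T.4 cells. The T.4 values rest on few counts, so the fitted difference of -5.66 ± 0.98 (adjusted p = 0.0129) depends on the prior count, and the call was lost without T.4.TNFa library 1 (0.0967). Socs3, Relb and Nfkbia did not pass this test, which does not show that the cell types responded alike. Socs3 changed by 2.61 ± 0.13 in Treg and 2.66 ± 0.13 in T.4 cells (difference -0.05 ± 0.18, adjusted p = 0.98), Relb by 2.18 ± 0.16 and 2.58 ± 0.16 (difference -0.40 ± 0.23, adjusted p = 0.768), and Nfkbia by 1.62 ± 0.13 and 2.09 ± 0.13 (difference -0.47 ± 0.19, adjusted p = 0.589).

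**Figure D5:**
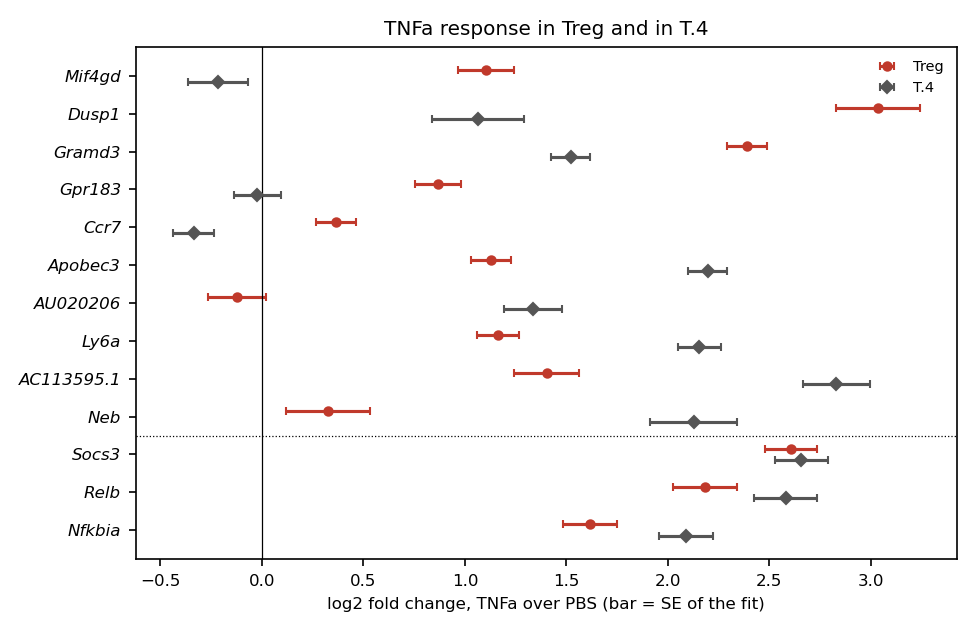
Log2 fold change of TNFa over PBS with its SE (horizontal axis) in Treg (red circles, upper) and in T.4 cells (grey diamonds, lower) for 13 genes. The 10 genes above the dotted line were called for a difference in response, with Treg higher for the first 5 and T.4 cells higher for the next 5, and Socs3, Relb and Nfkbia below it were not.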

How the data were processed

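RNA sequencing counts of 209 libraries over 55011 genes were used as deposited. The values are raw counts per gene that the authors made, and per the submitters' processing notes STAR 2.7.3a, featureCounts and the mouse build mm10 were used. The sources used here do not give the annotation, the strand setting or the treatment of reads with several matches, so counts of near-identical or overlapping genes are uncertain. Groups came from the titles, and no column of another sample was used. The 14 Treg libraries of all 4 treatments were fitted in edgeR 4.0.16 (R 4.3.3) with TMM scaling, filterByExpr and the quasi-likelihood test. The comparison with T.4 cells used an interaction term over 16 libraries. P-values were adjusted by Benjamini and Hochberg over all genes tested, with a threshold of 0.05, and each SE was taken as the size of the log2 fold change over the square root of F. Level spreads are SDs over libraries.

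Genes named were the 15 raised and 8 lowered most among called genes whose groups did not overlap and whose higher mean reached 20 CPM. Added to these were the 10 smallest adjusted p, 7 fixed genes, up to 5 members per list, and the 6 smallest adjusted p per direction in the other 2 tests. Gene lists and members were chosen with earlier results of these data known. Deviations of same-numbered libraries had correlations of -0.114 to 0.081. This gave no sign that equal numbers pair libraries but, with 3 to 5 pairs per comparison, cannot exclude it. No 2 libraries of a group were identical. Alternatives were RLE scaling, DESeq2 1.42.0, no filter, other sets of libraries in the fit, a replicate block and leaving out each library. Total counts of the libraries compared lay between 2937177 and 5040275.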

Additional observations from a re-analysis of the deposited data

Results flagged for a closer look

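In 9 of 129 groups of 5 PBS libraries tested, 1 library lay far from the others, which chance gives in about 1 of 20 groups. The value is the gap to the nearest library divided by the range of the group, set against 0.71. Among Treg PBS libraries, library 1 was highest for Areg (gap share 0.798, 3.02 CPM against 0.609 CPM for the next) and for Rnf157 (0.744, 12.3 CPM against 3.78 CPM). Library 2 was highest for Nfkb2 (0.777, 195 CPM against 151 CPM), Cd83 (0.750, 482 CPM against 259 CPM) and Cd27 (0.838, 812 CPM against 641 CPM). Library 5 was highest for Rflnb (0.735, 51.7 CPM against 23.0 CPM) and lowest for Il10 (0.792, 0 CPM against 2.74 CPM). Among T.4 PBS libraries, library 1 was highest for Dusp1 (0.800, 28.9 CPM against 22.5 CPM) and library 5 lowest for Ccr7 (0.864, 1940 CPM against 2130 CPM).

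The TNFa response differed between Treg and T.4 cells, by the interaction test, for 11 named genes. The log2 difference (Treg minus T.4) was 1.97 for Dusp1, 1.32 for Mif4gd, 0.89 for Gpr183, 0.87 for Gramd3 and 0.70 for Ccr7. It was -5.66 for Myadm, whose T.4 values rest on few counts, -1.80 for Neb, -1.46 for AU020206, -1.43 for AC113595.1, -1.07 for Apobec3 and -0.99 for Ly6a. Of these 11 calls, 8 were lost with the replicate block described below. The calls lost in at least 1 fit that left out 1 library numbered 3 (Gpr183, Ccr7 and Myadm).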

How the results depend on the processing

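The number of genes called between TNFa and PBS in Treg was 660, and it was 657 with RLE scaling, 952 with DESeq2 (480 raised and 472 lowered), 742 without a filter and 538 with only the 8 libraries compared. Leaving out single libraries gave 424 to 667, the lowest without TNFa library 3. Between TNFa and IL1b the count of 13 became 18 with RLE scaling, 100 with DESeq2 and 104 without a filter, and 0 to 23 without single libraries. For the response of Treg against T.4 the count of 21 became 70 with DESeq2, 76 without a filter, and 10 to 34 without single libraries. The causes of these shifts were not tested. The labels do not say whether replicate numbers pair the libraries. A replicate block on numbers 1 to 3 gave 159, 7 and 3 calls in the 3 comparisons. With this block, 154 of the 660 genes called between TNFa and PBS were still called. No alternative reversed a named gene. Of the 660 genes called between TNFa and PBS, 655 had the same sign with only the 8 libraries compared, 654 with the block, 659 without TNFa library 1, and all 660 in the other alternatives. The rest changed sign or were not tested in that fit, and the count does not tell these apart. Of 118 named genes, 95 kept their side of the threshold in each fit that left out 1 library, and 41 lost their call with the block. Of 8 named genes between TNFa and IL1b, 0 kept their call in each such fit. With the block, type I interferon genes raised went from 10 to 0 and Treg genes from 7 to 2. MYC and ribosome biogenesis genes went from 12 to 2, JAK-STAT genes from 18 to 7 and NF-kB proteins and kinases from 10 to 7.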
